A study of Mus musculus with 36 samples.

Results

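The comparison set livers of control mice culled at ZT14, early in the dark phase, against livers of control mice culled at ZT2, early in the light phase (ZT, zeitgeber time, hours after lights on). It used the 6 libraries whose titles carry the control genotype and one of these times, 3 per time and 1 per mouse, of the 36 libraries in all. Every mouse was an adult male of 2 to 3 months on the C57Bl/6NCrl background, kept in 12 h of light and 12 h of dark with chow and water freely available, and a mouse could be sampled only once. The controls were heterozygous (THRB+/-), so each of these 6 mice carried 1 altered *Thrb* allele, and none was a wild type in the strict sense. The altered allele impairs DNA binding of thyroid hormone receptor beta in every tissue, since it is not restricted to liver. Homozygous mice (THRB-/-) of the same series, 3 at ZT14 and 3 at ZT2, share no library with the controls and served for a second look at the same difference. The labels do not say whether mice of a group came from separate litters or cages.

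Liver runs a cell-autonomous circadian clock in which CLOCK or NPAS2 pairs with BMAL1 (gene *Arntl*) and switches on the Per, Cry and Nr1d genes, whose products then repress their own activators or the *Arntl* gene. Output factors such as DBP and TEF pass the rhythm on to enzymes of bile acid, lipid, sugar and drug metabolism. Feeding, body temperature and glucocorticoids also follow the light cycle, mice feed mainly at night, and liver genes respond to these signals as well as to the clock.

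Counts per library summed to 30281016 to 34263965 at ZT2 and to 34407614 to 36932175 at ZT14, so the ZT14 libraries were all deeper, and the part of depth in the results was not tested beyond the scaling of every value to CPM (counts scaled to a common library size by the TMM method). The share of mitochondrially encoded counts overlapped between the times, at 6.06 to 6.57% and 5.86 to 6.68%. ZT2 mouse a differed most within its group, with a chi-square per gene (how far the counts of 2 libraries differ beyond their depths) of 83.6 and 65.0 against mice b and c. Those mice gave 57.6 against each other. The ZT14 pairs gave 32.7 to 45.4, so every ZT2 pair lay further apart than any ZT14 pair. The 12 hepatocyte markers were abundant in all 6 libraries, with *Alb* at 41440 to 59130 CPM. Of these 12, 2 were higher at ZT14 (*Hnf4a* by 0.48 and *Cyp2e1* by 0.67 on the log2 scale) and 1 lower (*Fgb*). That is 16.7% and 8.33%, against 6.21% and 6.37% of all tested genes. Markers of other cells were present at lower summed levels, 280 to 608 CPM for 12 Kupffer cell and macrophage markers and 284 to 415 CPM for 12 endothelial markers. The ranges of the times overlapped for both lists. The 608 CPM was that of ZT2 mouse a, with ZT2 mice b and c at 316 and 280 CPM. *Thrb* itself was at 29.4, 36.5 and 27.2 CPM at ZT2 and at 27.2, 31.8 and 29.4 CPM at ZT14, a log2 difference of -0.07 (SE 0.13, adjusted p = 0.798). In the homozygous mice of both times it was at 26.2 to 32.6 CPM. Counts over the whole gene do not separate the altered from the unaltered transcript, so this gene could not check the genotype labels.

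Of 17994 genes tested, 1117 were higher at ZT14 (6.21%) and 1146 were lower (6.37%) at an adjusted p under 0.05, together 12.6%. A change of at least 2-fold was seen for 256 of the higher and 340 of the lower genes, and one of at least 4-fold for 73 and 94. The median log2 difference over all tested genes was -0.01, with quartiles of -0.26 and 0.24. All 3 libraries of one time lay above all 3 of the other for 30.6% of the tested genes. Both counts fell whichever single library was left out, to between 720 and 891 higher and between 744 and 967 lower genes. The fewest higher genes were found without ZT2 mouse c (720, with 745 lower) and the fewest lower genes without ZT14 mouse c (744). A reduced group has fewer mice by construction, so these fits cannot tell a loss of power from a reliance on particular libraries.

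The promoters of 5 genes with large changes are printed first. They were picked because their windows hold a short motif of a known regulator, so the matches in them are no finding. They are the 250 bases before the RefSeq transcription start in GRCm38.p6, read 5′ to 3′ on the gene's strand, with matches in capitals. The E-box CACGTG is the site of CLOCK and BMAL1, the D-box TTATGTAA that of DBP and TEF, GAANNTTC the core of the heat shock element, and TCACCCCAC a sterol regulatory element. Both strands were searched. The windows are chr3:95882229-95882478 on the minus strand for *Ciart*, chr11:69098699-69098948 on the plus strand for *Per1*, chr4:151044666-151044915 on the minus strand for *Per3*, chr17:34959239-34959488 on the minus strand for *Hspa1b*, and chr13:119690101-119690350 on the plus strand for *Hmgcs1*. By the GENCODE annotation the *Per1* window lies within the gene, upstream of an internal first exon, and the last bases of the *Ciart* window overlap the first exon of that gene.
Ciart: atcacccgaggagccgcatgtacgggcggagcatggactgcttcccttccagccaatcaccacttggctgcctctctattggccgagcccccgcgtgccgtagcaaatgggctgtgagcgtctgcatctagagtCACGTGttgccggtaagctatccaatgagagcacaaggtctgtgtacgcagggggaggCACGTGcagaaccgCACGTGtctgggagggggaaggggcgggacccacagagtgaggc
Per1: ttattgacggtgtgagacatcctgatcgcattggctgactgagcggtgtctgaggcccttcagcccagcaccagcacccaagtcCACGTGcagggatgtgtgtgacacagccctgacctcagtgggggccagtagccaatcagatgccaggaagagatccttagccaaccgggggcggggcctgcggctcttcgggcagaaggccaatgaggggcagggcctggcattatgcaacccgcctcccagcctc
Per3: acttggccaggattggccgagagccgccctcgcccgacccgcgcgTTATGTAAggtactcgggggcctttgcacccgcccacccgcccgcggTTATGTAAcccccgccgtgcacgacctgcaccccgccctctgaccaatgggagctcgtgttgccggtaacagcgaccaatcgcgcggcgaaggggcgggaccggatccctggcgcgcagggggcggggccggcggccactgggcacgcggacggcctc
Hspa1b: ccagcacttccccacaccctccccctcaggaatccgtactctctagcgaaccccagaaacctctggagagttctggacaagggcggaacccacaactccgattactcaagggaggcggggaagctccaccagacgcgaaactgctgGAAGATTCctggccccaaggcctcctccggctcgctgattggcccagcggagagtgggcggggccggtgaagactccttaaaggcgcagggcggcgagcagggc
Hmgcs1: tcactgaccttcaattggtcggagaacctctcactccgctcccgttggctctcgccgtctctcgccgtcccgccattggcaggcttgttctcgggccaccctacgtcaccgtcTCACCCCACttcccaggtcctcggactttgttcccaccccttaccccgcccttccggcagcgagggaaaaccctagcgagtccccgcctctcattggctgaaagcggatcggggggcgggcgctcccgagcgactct

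*Ciart* carries 3 E-boxes, *Per1* 1 E-box and *Per3* 2 D-boxes in these windows. Over the 32851 promoter windows of 300 bases (250 before to 50 after the start), 7.15% held CACGTG and 0.938% held TTATGTAA. Among tested genes with a window, CACGTG was found in 11.0%, among those higher at ZT14 in 131 of 841 (15.6%), and among those lower in 110 of 874 (12.6%). GAANNTTC was found in 10 of the 15 listed heat shock genes that have a window, and in 9 of the 14 that were called. Its share was 7.22% of all tested genes with a window and 7.86% of all windows. Of 11 listed clock output genes higher at ZT14 that have a window, 2 held CACGTG and 0 held TTATGTAA. TCACCCCAC was found in 1 of the 10 called cholesterol genes that have a window, *Hmgcs1*, against 0.742% of tested genes and 0.551% of all windows. Of other genes with large changes, some held the letters searched in these 250 bases and others lacked them. *Tef* held 1 E-box in each of its windows, and *Hspa1a* held 1 GAANNTTC. No E-box was in the windows of *Dbp*, *Usp2* and *Noct* or in a second *Per1* window, and no GAANNTTC was in either window of *Hsph1*. Neither TAGGTCA nor TGGGTCA, elements bound by REV-ERB factors, was in the 250 bases of *Arntl*, *Npas2* and *Clock*. *Nfil3* held 1 TAGGTCA in its 250 bases. In the 300-base windows of these 4 genes, TAGGTCA was found in 2 and TGGGTCA in 0. The shares over tested genes with a window were 2.51% and 4.16%, and over all windows 2.61% and 3.98%. These are counts of letters, and occupancy was not measured.

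Genes of the BMAL1 and CLOCK side of the clock and the Per genes differed in opposite directions. In a list of 6 tested genes made of clock activators and *Nfil3*, which is a repressor of D-box genes, 4 were lower at ZT14 (*Arntl*, *Npas2*, *Clock* and *Nfil3*) and 1 was higher, and of 14 clock repressors 7 were higher (*Per1*, *Per2*, *Per3*, *Ciart*, *Cry2*, *Bhlhe40* and *Bhlhe41*) and 1 was lower. The background was 6.21% higher and 6.37% lower, and each of these 13 calls held with any 1 of the 6 libraries left out. The median log2 difference was -0.86 for the first list and 0.67 for the repressors. Members of these lists and of those below were chosen with earlier results of these data known. Their shares beside the background therefore describe the lists and do not test them.

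*Arntl*, which encodes BMAL1, was at 25.2, 31.9 and 29.1 CPM in the ZT2 mice and at 6.82, 5.80 and 6.47 CPM in the ZT14 mice. The groups lay far apart and within each the mice were close, for a log2 difference of -2.18 (SE 0.27, adjusted p = 2.71e-06), 4.52-fold lower at ZT14. *Npas2*, the paralog of *Clock*, gave 227, 414 and 400 counts at ZT2 and 0, 4 and 1 at ZT14. The summed counts, 1041 against 5, correspond to a ratio of 224 (95% interval 95.6 to 691, counting error only). *Clock* itself moved less, from 40.6, 36.5 and 36.4 CPM to 26.0, 22.8 and 22.2 CPM, a log2 difference of -0.68 (SE 0.14, adjusted p = 0.00107). *Nfil3* was at 31.0, 62.7 and 60.7 CPM at ZT2 and at 26.1, 28.3 and 20.2 CPM at ZT14. ZT2 mouse a thus lay near the ZT14 mice for this gene, and the fitted log2 difference was -1.05 (SE 0.18, adjusted p = 0.000186).

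Among the repressors, *Per1* was at 8.21, 2.82 and 3.73 CPM at ZT2 and at 82.5, 59.4 and 77.3 CPM at ZT14 (log2 3.90, SE 0.65, adjusted p = 0.00012). *Per2* was at 14.7, 13.99 and 11.1 CPM against 107, 90.7 and 109 CPM (log2 2.95, SE 0.27, adjusted p = 2.08e-08). *Per3* rose from 3.001, 2.26 and 1.41 CPM to 29.6, 28.2 and 31.9 CPM (log2 3.75, SE 0.37, adjusted p = 6.93e-08). The 3 Per genes were therefore separated between the times in every mouse. *Ciart*, a repressor of CLOCK and BMAL1, showed the second largest rise by the rule for named genes, from 0.702, 0.323 and 0.176 CPM to 17.8, 14.6 and 18.9 CPM (log2 5.43, SE 0.64, adjusted p = 1.21e-06). *Cry2* changed by 0.71, *Bhlhe40* by 1.27 and *Bhlhe41* by 1.97 on the log2 scale. *Cry1*, with a log2 difference of 0.53 (adjusted p = 0.0694), *Nr1d2*, with 0.63 (adjusted p = 0.112), and *Nr1d1*, with -0.83 (adjusted p = 0.0501), did not pass the threshold. *Nr1d1* encodes REV-ERB alpha and was at 49.6, 31.7 and 35.3 CPM at ZT2 and at 14.3, 30.7 and 20.4 CPM at ZT14, with ZT14 mouse b close to the ZT2 mice.

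**Figure D1:**
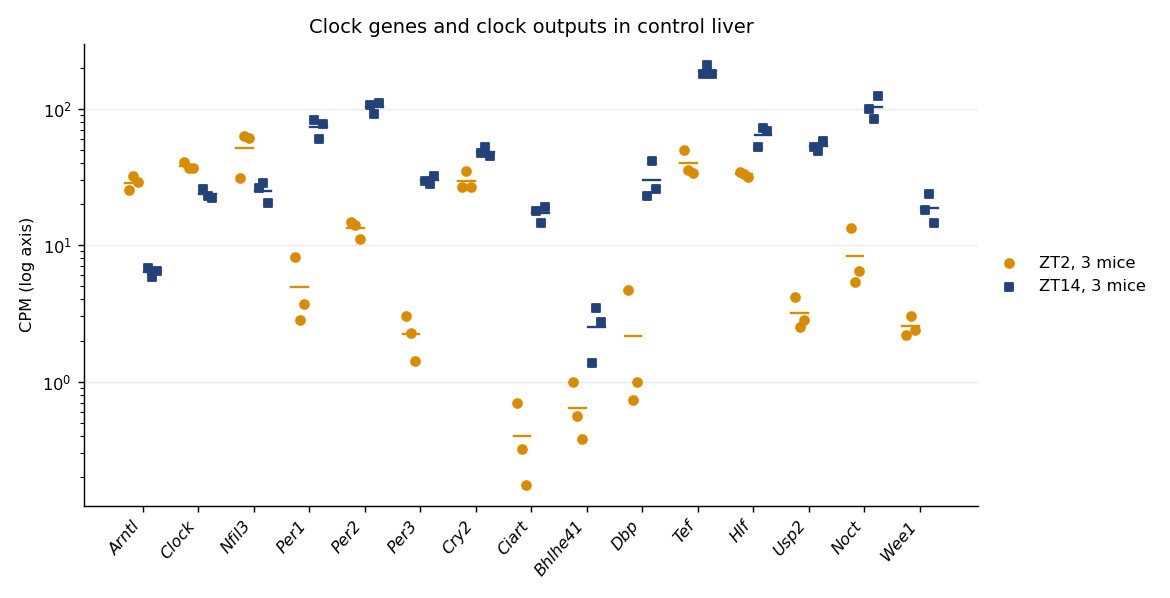
CPM on a log axis of 15 clock and clock output genes in the 3 ZT2 mice (circles) and the 3 ZT14 mice (squares) of the control genotype, with a bar at each mean. *Per1*, *Per2*, *Per3*, *Ciart*, *Usp2* and *Noct* are separated by wide gaps with the ZT14 mice above, *Arntl* with the ZT14 mice below, while for *Nfil3* ZT2 mouse a at 31.0 CPM sits next to the ZT14 mice.

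The output genes of the clock followed with large changes. Of 18 tested PAR-bZIP factors and output genes, 12 were higher and 4 were lower at ZT14 (66.7% and 22.2%, against 6.21% and 6.37% in the background). The median log2 difference was 2.00, and the values ran from -4.06 to 4.07, so the largest fall was about as large as the largest rise. *Dbp*, a D-box activator, was at 4.73, 0.733 and 0.998 CPM at ZT2 and at 23.1, 41.4 and 25.8 CPM at ZT14 (log2 3.82, SE 0.48, adjusted p = 2.99e-06). ZT2 mouse a was the highest of its group for *Dbp*, yet lay well below all ZT14 mice. *Tef*, of the same family, was at 49.6, 35.3 and 34.0 CPM against 180, 209 and 180 CPM (log2 2.26, SE 0.20), and *Hlf* was 0.97 higher on the log2 scale. *Usp2*, a deubiquitinase, was at 4.15, 2.49 and 2.85 CPM against 52.0, 48.8 and 58.2 CPM, a 16.8-fold difference (adjusted p = 1.27e-07). *Noct*, which encodes nocturnin, was at 13.3, 5.34 and 6.51 CPM against 99.0, 83.3 and 124 CPM (log2 3.61, SE 0.62). *Wee1*, a kinase that holds back mitosis, was 2.87 higher, and *Nampt*, the rate-limiting enzyme of NAD salvage, was 2.04 higher (SE 0.20). For *Rgs16*, a regulator of G protein signalling, the ZT2 mice disagreed, with 0.351, 6.19 and 5.99 CPM against 25.2, 25.1 and 29.4 CPM at ZT14. Its log2 difference of 2.66 (adjusted p = 0.017) fell to 2.12 without ZT2 mouse a, with an adjusted p of 0.0799. *Leo1*, the smallest of the 4 that were lower (-0.43), also lost its call in 4 of the 6 fits with 1 library left out, at adjusted p up to 0.12.

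The largest changes of all tested genes were mixed in kind, and clock genes and their outputs were among them. By a rule of fold, level and non-overlap, which 2033 genes met, the 12 genes with the largest rise were *Gm45819*, *Ciart*, *Usp2*, *Per1*, *A930033H14Rik*, *Dbp*, *Per3*, *Noct*, *Mfsd2a*, *Acot3*, *Gm14097* and *Hspa1a*. The corresponding 12 with the largest fall were *Npas2*, *Tubb2b*, *Gm34654*, *Pitx3*, *Elovl3*, *Loxl4*, *Rfx4*, *Spon2*, *Gm36041*, *Aqp8*, *Ndrg1* and *Gm32872*. All 24 calls held with any 1 library left out. *Mfsd2a*, a transporter of lysophosphatidylcholine with docosahexaenoic acid, was at 13.9, 9.85 and 6.78 CPM at ZT2 and at 117, 62.6 and 136 CPM at ZT14 (log2 3.38, SE 0.46). *Acot3*, a peroxisomal acyl-CoA thioesterase, was at 0.447, 2.26 and 2.20 CPM against 6.46, 24.8 and 18.5 CPM (log2 3.33, SE 0.78), although its neighbours are near copies of it and the authors' counting could split their reads. *Acot4*, one of these neighbours, was 1.27 higher.

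*Elovl3*, a fatty acid elongase of the liver's long-chain lipids, was at 846, 733 and 657 CPM at ZT2 and at 47.9, 25.8 and 60.1 CPM at ZT14. This 16.7-fold fall (log2 -4.06, SE 0.67, adjusted p = 9.81e-05) left no overlap between the groups. *Pitx3*, which ends 377 bases from the end of *Elovl3* on the opposite strand, gave 771, 713 and 685 counts against 62, 13 and 62. Its counts were 2.85 to 3.06% of those of *Elovl3* at ZT2 and 1.36 to 3.63% at ZT14. The libraries were non-directional, so reads of the one gene that reach the other cannot be told apart. *Spon2*, a secreted matrix protein, was tightly grouped at 18.9, 23.8 and 22.4 CPM against 1.82, 2.28 and 2.28 CPM (log2 -3.35, SE 0.30, adjusted p = 1.08e-08). *Loxl4*, a lysyl oxidase, was at 4.92, 12.9 and 9.36 CPM against 0.618, 0.510 and 0.907 CPM. *Aqp8*, a water channel of hepatocytes, was at 130, 463 and 341 CPM against 44.1, 46.5 and 47.6 CPM (log2 -2.76, SE 0.53), so the ZT2 mice varied more than the ZT14 mice. *Tubb2b*, a beta tubulin, gave 151, 192 and 248 counts against 11, 2 and 6, a ratio of summed counts of 33.4 (95% interval 21.2 to 55.9), and *Tubb2a*, a near-identical gene that could share its reads, was 2.00 lower on the log2 scale. *Gm45819* gave 0, 4 and 0 counts at ZT2 and 111, 179 and 81 at ZT14, a ratio of 86.3 (95% interval 33.4 to 318), and overlaps *1600010M07Rik* on the other strand. *A930033H14Rik*, *Gm14097*, *Gm36041* and *Gm32872* also overlap genes on the other strand, so their counts are uncertain in the same way.

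Heat shock genes rose together. Of 20 tested, 17 were higher at ZT14 and none lower, against a background of 6.21% and 6.37%, all 20 had a positive log2 difference, and the median was 0.87. *Hspa1b*, an inducible HSP70, was at 22.6, 8.47 and 10.6 CPM at ZT2 and at 79.8, 133 and 81.2 CPM at ZT14 (log2 2.82, SE 0.48, adjusted p = 0.000177). Each ZT14 mouse lay far above each ZT2 mouse. *Hspa1a*, whose sequence is nearly the same so that reads may move between the pair, gave 28, 12 and 5 counts against 104, 144 and 136. *Hspa8*, the constitutive HSC70 and one of the most abundant chaperones, was at 1224, 640 and 704 CPM against 2187, 2155 and 2444 CPM (log2 1.40, SE 0.30, adjusted p = 0.00222). *Hsph1*, a nucleotide exchange factor of HSP70, was at 78.3, 48.7 and 30.6 CPM against 139, 169 and 135 CPM (log2 1.49, SE 0.29). The co-chaperones *Bag3* (log2 1.38), *Dnaja1* (1.04) and *Dnajb4* (0.95), and the cytosolic HSP90 genes *Hsp90aa1* (0.97) and *Hsp90ab1* (0.51), were higher too. In 5 of the 17 genes, *Hspd1*, *Hspa4l*, *Ahsa1*, *Stip1* and *Fkbp4*, the call was lost without 1 or more single libraries, at adjusted p from 0.0557 to 0.204, which leaves 12 that held throughout. Within ZT2, mouse a was the highest for *Hspa1b*, *Hspa8*, *Hsph1* and *Hsp90aa1*.

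Cold-inducible RNA-binding genes were split. *Cirbp*, which rises when cells are cooled, was at 26.8, 36.3 and 47.8 CPM at ZT2 and at 19.5, 19.3 and 20.7 CPM at ZT14 (log2 -0.90, SE 0.24, adjusted p = 0.0134), but without ZT2 mouse c the adjusted p was 0.116 and without ZT14 mouse b 0.0506. *Rbm3*, of the same family, was higher at ZT14, at 45.8, 43.9 and 43.8 CPM against 30.7, 24.02 and 34.5 CPM (log2 0.58, adjusted p = 0.00424). The other call among 10 tested genes was *Ddx5*, an RNA helicase, 0.36 higher. The list thus had 2 higher and 1 lower (20% and 10%, against 6.21% and 6.37% in the background).

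Genes of the unfolded protein response moved less uniformly than the heat shock genes, with 5 of 26 higher and none lower (19.2% against 6.21% in the background), or 8 higher in a fit of the 6 libraries alone. *Herpud1*, which helps clear proteins from the endoplasmic reticulum, was at 239, 194 and 202 CPM at ZT2 and at 555, 714 and 708 CPM at ZT14 (log2 1.64, SE 0.29, adjusted p = 0.000264). The calls of *Dnajb9*, *Ddit3*, *Atf3* and *Eif2ak3* were each lost without single libraries, at adjusted p up to 0.143, 0.175, 0.167 and 0.218. *Hspa5*, the chaperone BiP, was at 960, 1084 and 702 CPM against 1070, 1768 and 1358 CPM and did not pass (adjusted p = 0.204).

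Many ribosome biogenesis genes were higher at ZT14, and no ribosomal protein gene was called. Of 32 factors that make ribosomal RNA or assemble ribosomes, 17 were higher and none lower (53.1% against 6.21% in the background), with a median log2 difference of 0.51. In the homozygous mice 6 of 32 were higher (median 0.32), against 5.09% of all tested genes. In the controls 8 were higher without ZT2 mouse b. *Nop2*, an rRNA methyltransferase, was at 19.5, 17.1 and 21.4 CPM at ZT2 and at 41.8, 43.9 and 38.5 CPM at ZT14 (log2 1.099, SE 0.20, adjusted p = 0.000294). *Rrp12*, needed for export of the subunits, was at 10.1, 8.06 and 10.5 CPM against 19.1, 22.1 and 23.8 CPM (log2 1.18, SE 0.20), and *Nolc1*, a nucleolar phosphoprotein, was 1.03 higher. *Polr1a*, the largest subunit of RNA polymerase I, was 0.61 higher. Of the 17, 8 held with any 1 library left out, and the other 9 (*Polr1b*, *Nop56*, *Nop58*, *Ncl*, *Rrp9*, *Ddx21*, *Utp4*, *Tsr1* and *Heatr1*) reached adjusted p between 0.0525 and 0.27 in some fits. None of 78 cytosolic ribosomal protein genes passed in edgeR's test, 0 had an unadjusted p under 0.05 and DESeq2 called 0, with log2 differences from -0.48 to 0.43 and a median of 0.00.

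**Figure D2:**
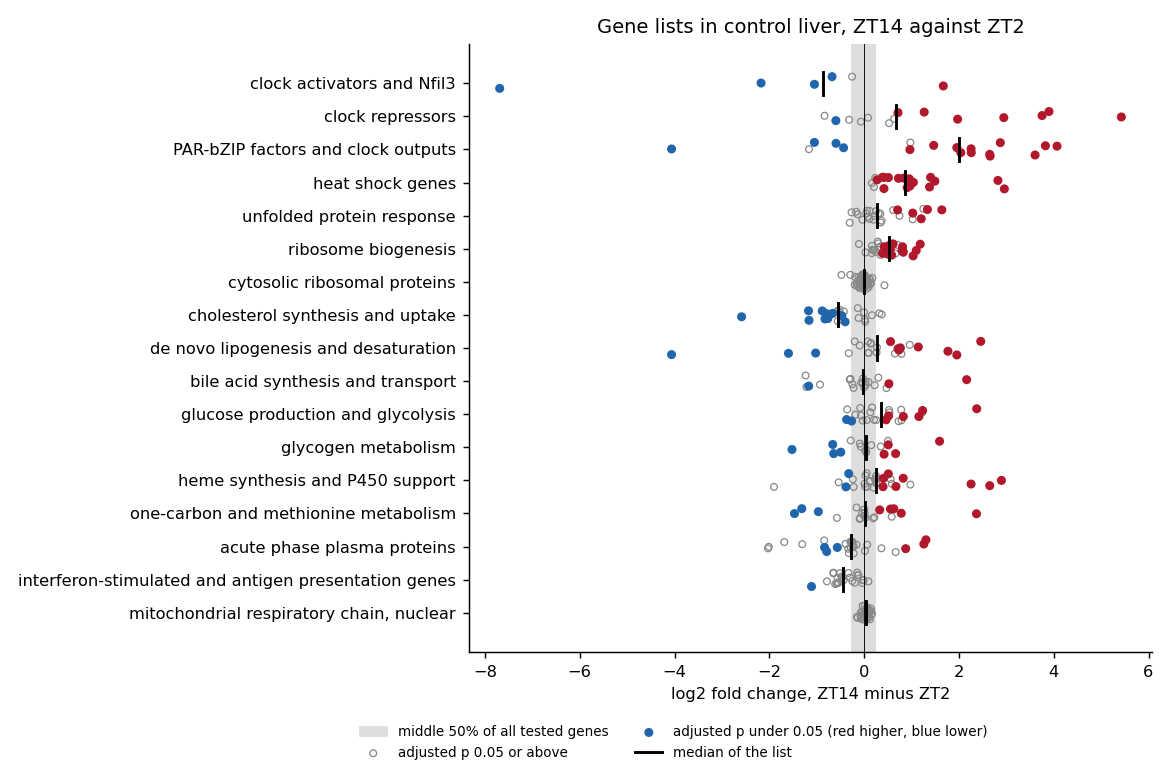
Log2 difference between ZT14 and ZT2 for each tested gene of 17 lists in the control genotype, with filled points for genes at an adjusted p under 0.05 (red higher, blue lower at ZT14), open points for the others, a black bar at each list's median, and grey for the middle 50% of all tested genes. Heat shock and ribosome biogenesis genes lie to the right, with medians of 0.87 and 0.51, and cholesterol genes lie to the left, with a median of -0.56, while cytosolic ribosomal proteins and respiratory chain genes lie around 0.

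Several transcripts of cholesterol synthesis were lower at ZT14. Of 25 genes of synthesis and uptake, 11 were lower and none higher (44.0% against 6.37% in the background), with a median log2 difference of -0.56, while 14 did not pass and 5 had a positive difference. The number lower was 6 without ZT2 mouse b or c and 5 without ZT14 mouse c. *Hmgcs1*, which makes HMG-CoA, was at 366, 469 and 563 CPM at ZT2 and at 88.3, 78.5 and 66.0 CPM at ZT14, 6.01-fold lower (log2 -2.59, SE 0.32, adjusted p = 2.71e-06). *Msmo1*, a sterol demethylase, was at 177, 189 and 207 CPM against 95.4, 89.5 and 69.2 CPM (log2 -1.17, SE 0.26, adjusted p = 0.00257), and *Mvk*, mevalonate kinase, was at 32.9, 33.7 and 39.5 CPM against 17.9, 16.3 and 13.2 CPM (log2 -1.16, SE 0.22). *Dhcr7*, which makes the last step to cholesterol, was 0.88 lower and *Fdft1*, squalene synthase, 0.81 lower. These 5 held with any 1 library left out, whereas *Srebf2*, *Acat2*, *Pmvk*, *Cyp51*, *Nsdhl* and *Sc5d* each lost the call in at least 1 such fit, at adjusted p up to 0.252.

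Of 20 bile acid genes 2 were higher and 1 lower (10% and 5%), shares near the background of 6.21% and 6.37%. The number lower was 3 in DESeq2 and 4 in a fit of the 6 libraries alone. *Cyp7a1*, the rate-limiting enzyme of bile acid synthesis, was at 28.8, 24.3 and 31.8 CPM at ZT2 and at 148, 134 and 98.5 CPM at ZT14 (log2 2.16, SE 0.47, adjusted p = 0.00213). *Abcb11*, the export pump of bile salts, fell in a narrow spread from 657, 721 and 682 CPM to 326, 310 and 280 CPM (log2 -1.17, SE 0.12, adjusted p = 1.93e-07). *Nr1h4*, the bile acid receptor FXR, was 0.52 higher. *Nr0b2*, which encodes the repressor SHP, was at 106, 63.1 and 90.1 CPM against 32.8, 31.6 and 45.6 CPM and narrowly missed the threshold (log2 -1.24, SE 0.42, adjusted p = 0.0516). *Cyp8b1* was at -0.93 (adjusted p = 0.106).

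Lipogenic genes did not move as one. Of 24, 8 were higher and 3 lower (33.3% and 12.5%, against 6.21% and 6.37% in the background). *Thrsp*, a lipogenic factor and a known thyroid hormone target, was at 171, 458 and 265 CPM at ZT2 and at 1815, 1174 and 1932 CPM at ZT14 (log2 2.46, SE 0.59, adjusted p = 0.00491). *Lpin1*, a phosphatidate phosphatase, was at 28.8, 53.3 and 38.3 CPM against 219, 93.2 and 155 CPM (log2 1.95, SE 0.43), *Elovl6* was 1.77 higher (SE 0.38), and *Srebf1*, the lipogenic regulator, was at 258, 324 and 349 CPM against 596, 724 and 736 CPM (log2 1.14, SE 0.27, adjusted p = 0.00459). *Dgat2*, which completes triglyceride synthesis, was 0.56 higher. The other elongases that were called went down, *Elovl3* as given above and *Elovl5* from 450, 880 and 858 CPM to 265, 239 and 219 CPM (log2 -1.60, SE 0.28). *Acaca*, *Fads2*, *Mid1ip1* and *Acss2* were called in all 6 libraries but not in some fits with 1 left out, at adjusted p up to 0.202. *Fasn*, fatty acid synthase, was at 547, 1056 and 874 CPM against 1657, 1596 and 1571 CPM, without overlap, yet did not pass (log2 0.96, SE 0.49, adjusted p = 0.218). *Scd1* was at 0.10 (SE 0.38, adjusted p = 0.921), with ZT2 mouse a at 3742 CPM and mouse b at 9323 CPM.

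Of 37 fatty acid oxidation and ketogenesis genes, 5 were higher and 3 lower (13.5% and 8.11%, against 6.21% and 6.37% in the background). *Plin2*, which coats lipid droplets, was at 421, 452 and 384 CPM at ZT2 and at 230, 244 and 218 CPM at ZT14 (log2 -0.86, SE 0.19, adjusted p = 0.0024), and *Hacl1*, a peroxisomal lyase, was 0.84 lower. *Cpt1a*, which lets fatty acids enter mitochondria, was 0.64 higher but had an adjusted p of 0.0523 without ZT14 mouse b. *Pdk4*, a brake on glucose oxidation, was at 7.44, 27.5 and 28.1 CPM against 5.39, 7.07 and 3.92 CPM (log2 -1.94, adjusted p = 0.00968), with adjusted p of 0.0538 without ZT2 mouse c and 0.0581 without ZT14 mouse c. The calls of *Ppara* and *Slc22a5* were lost without single libraries too, at adjusted p up to 0.206 and 0.133.

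In glucose metabolism 6 of 24 genes were higher and 2 lower (25% and 8.33%, against 6.21% and 6.37% in the background). A fit of the 6 libraries alone gave 10 higher and 0 lower, and 3 were higher without ZT2 mouse a or ZT14 mouse c. *Slc37a4*, the glucose-6-phosphate transporter, was at 143, 132 and 128 CPM at ZT2 and at 312, 292 and 343 CPM at ZT14 (log2 1.23, SE 0.14, adjusted p = 5.92e-07). *Pfkfb3*, which makes the activator of glycolysis fructose 2,6-bisphosphate, was at 6.90, 6.10 and 6.04 CPM against 50.6, 24.7 and 23.5 CPM (log2 2.38, SE 0.52). The calls of *Gckr*, *Slc2a2*, *Pfkfb1*, *Gpi1* and *Ldha* depended on single libraries, at adjusted p up to 0.18. *G6pc* (log2 -0.36, SE 0.54) and *Pck1* (0.73, SE 0.43), the enzymes of glucose release and gluconeogenesis, did not pass, at adjusted p of 0.761 and 0.315.

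Glycogen genes were called in both directions, 4 higher and 4 lower of 16 (25% each, against 6.21% and 6.37% in the background). *Gys2*, liver glycogen synthase, was at 101, 120 and 94.9 CPM at ZT2 and at 309, 310 and 334 CPM at ZT14, 3.01-fold higher (log2 1.59, SE 0.17, adjusted p = 2.02e-07). *Ugp2*, which makes UDP-glucose, was 0.66 higher. *Ppp1r3c*, which targets phosphatase to glycogen, was at 130, 151 and 137 CPM against 29.6, 56.2 and 59.6 CPM (log2 -1.52, SE 0.32, adjusted p = 0.00172), while the phosphorylase kinase subunit *Phka2* was 0.64 lower and glycogenin *Gyg* 0.66 lower. *Gbe1* and *Phkb* were called with all 6 libraries but not in some of the reduced fits, at adjusted p up to 0.196 and 0.126.

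**Figure D3:**
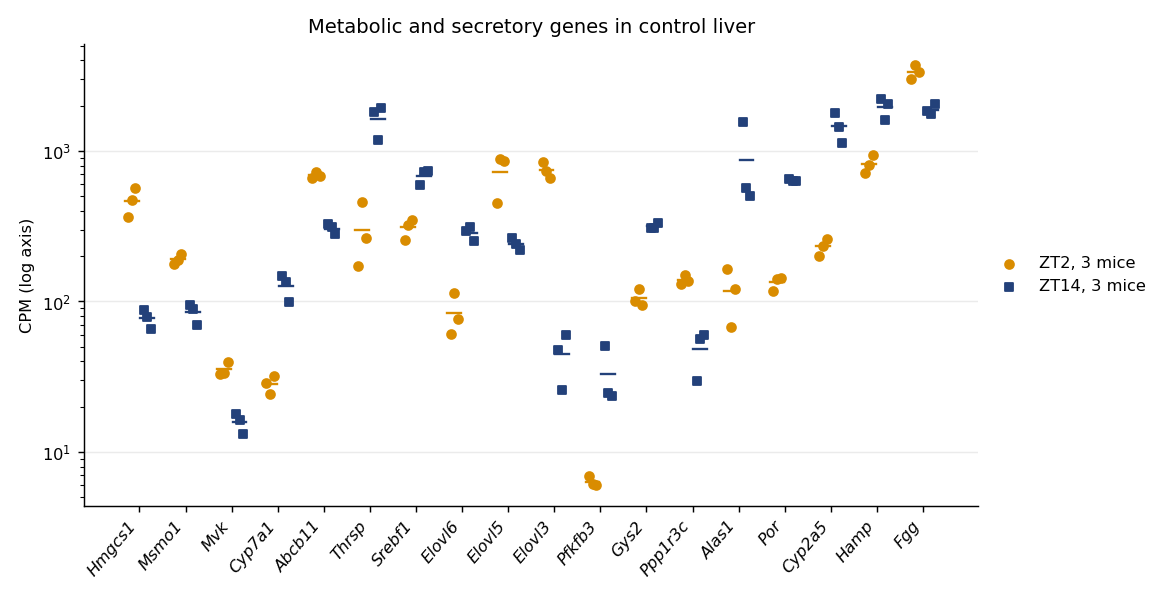
CPM on a log axis of 18 metabolic and secretory genes in the 3 ZT2 mice (circles) and the 3 ZT14 mice (squares) of the control genotype, with a bar at each mean. *Por* and *Gys2* show tight groups, whereas *Alas1* at ZT14 spans 499 to 1552 CPM and *Thrsp* at ZT2 spans 171 to 458 CPM.

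Of 32 heme and drug metabolism genes 8 were higher (25% against 6.21% in the background) and 2 lower (6.25% against 6.37%). *Por*, the electron donor of microsomal P450 enzymes, was at 118, 142 and 142 CPM at ZT2 and at 656, 631 and 632 CPM at ZT14, with little spread within either group (log2 2.26, SE 0.19, adjusted p = 6.37e-09). *Cyp2a5*, coumarin 7-hydroxylase, was at 200, 234 and 262 CPM against 1797, 1439 and 1129 CPM (log2 2.65, SE 0.35), although reads may be shared with its close paralog *Cyp2a4*, which was at 0.97 (adjusted p = 0.633). *Alas1*, the rate-limiting enzyme of heme synthesis, was at 163, 68.1 and 121 CPM against 1552, 571 and 499 CPM (log2 2.90, SE 0.77, adjusted p = 0.0111). All ZT14 mice exceeded all ZT2 mice, but the adjusted p was 0.0754 without ZT14 mouse a and 0.0656 without ZT2 mouse b. *Por* and *Cyp2a5* were the only 2 of the 10 calls that held in each fit with 1 library left out. Losing the call there were *Nr1i2* and *Nr1i3*, which encode the xenobiotic receptors PXR and CAR, and *Cyp2e1*, *Cyp1a2*, *Cyp3a13*, *Uros* and *Ppox*, at adjusted p up to 0.203.

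In one-carbon metabolism 5 of 20 genes were higher and 3 lower (25% and 15%, against 6.21% and 6.37% in the background). *Cbs*, which takes homocysteine into cysteine synthesis, was at 682, 719 and 705 CPM at ZT2 and at 377, 331 and 370 CPM at ZT14 (log2 -0.97, SE 0.14, adjusted p = 2.55e-05). *Ahcy*, which removes S-adenosylhomocysteine, was 0.56 higher (SE 0.10) and *Mtrr* 0.78 higher. *Bhmt* was at 2490, 2865 and 2505 CPM against 1012, 773 and 1373 CPM, with an adjusted p of 0.0411 that reached 0.171 without ZT14 mouse b. *Mthfd1l* (log2 2.37) had an adjusted p of 0.0567 without ZT2 mouse c, and *Mat1a* and *Mat2a* were likewise lost in some fits, at up to 0.123 and 0.194. Of 31 urea cycle and amino acid catabolism genes 4 were higher and 3 lower (12.9% and 9.68%, against the same background), among them *Asl*, argininosuccinate lyase (log2 0.89, SE 0.18), *Gpt2* (0.81), *Agxt* (-0.84) and histidase *Hal* (-0.86, SE 0.18). The calls of *Prodh* and *Kyat1* reached adjusted p of 0.155 and 0.168 without single libraries.

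Among hormone-responsive genes, *Fkbp5*, a classical glucocorticoid target, was at 13.1, 31.1 and 15.4 CPM at ZT2 and at 99.99, 84.3 and 84.6 CPM at ZT14 (log2 2.17, SE 0.32, adjusted p = 2.44e-05). Together with *Per1* and *Gadd45b* it made 3 higher of 16 glucocorticoid-responsive genes, and *Klf9* was the 1 lower (18.8% and 6.25%, against 6.21% and 6.37% in the background). A fit of the 6 libraries alone gave 5 higher. *Gadd45b* and *Klf9* lost the call without single libraries, at adjusted p up to 0.121 and 0.144. Of 24 genes of the thyroid hormone pathway and its targets 4 were higher (*Thrsp*, *Crym* and *Idh3a* among them) and 3 lower (*Thra*, *Klf9* and *Ncoa2*), which is 16.7% and 12.5% against the same background, with a median log2 difference of 0.03. *Thra*, the other thyroid hormone receptor gene, was at 17.8, 20.4 and 22.8 CPM against 11.0, 12.4 and 10.1 CPM (log2 -0.86, SE 0.15, adjusted p = 0.000242). It overlaps *Nr1d1* on the other strand, so the reads of the shared stretch cannot be assigned in non-directional libraries. *Ncoa2* lost its call without ZT2 mouse b (adjusted p = 0.0675). *Dio1*, which makes T3 in liver, was at 146, 60.8 and 59.8 CPM against 113, 117 and 80.8 CPM (adjusted p = 0.764), with ZT2 mouse a apart from its group.

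Among acute phase genes the 3 fibrinogen chains were lower at ZT14. *Fgg* was at 3006, 3724 and 3346 CPM at ZT2 and at 1854, 1759 and 2038 CPM at ZT14 (log2 -0.83, SE 0.12, adjusted p = 1.39e-05), *Fga* was 0.79 lower and *Fgb* 0.57 lower. *Hamp*, which encodes the iron hormone hepcidin, was higher at ZT14. It was at 711, 809 and 933 CPM at ZT2 and at 2212, 1600 and 2060 CPM at ZT14 (log2 1.26, SE 0.25, adjusted p = 0.000761). *Il6ra* (1.304) and *Steap4* (0.88) were higher too. These 6 of 26 acute phase genes (11.5% higher and 11.5% lower, against 6.21% and 6.37%) held with any 1 library left out, and DESeq2 called 5 lower. *Saa1* and *Saa2*, acute phase apolipoproteins, missed the threshold (adjusted p = 0.0516 and 0.0512). *Saa1* was at 234, 48.4 and 27.4 CPM at ZT2 and at 34.2, 18.1 and 24.6 CPM at ZT14, and its log2 difference of -2.01 was -0.56 without ZT2 mouse a (adjusted p = 0.682).

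Interferon-stimulated and antigen presentation genes gave counts that depended on the fit. In 23 of 24 the log2 difference was negative, with a median of -0.45. Of the 24, 12 were lower without overlap, against 2809 of all 17994 tested genes. *Rsad2* alone was called (4.17% lower against 6.37% in the background; log2 -1.12, adjusted p = 0.0427), whereas a fit of the 6 libraries alone called 9 lower and one of the 18 control libraries called 0. In the homozygous mice 3 of 24 were lower, against 5.34% of all tested genes. The call of *Rsad2* was not stable, and it lost the call in 5 of the 6 fits with 1 library left out, at adjusted p up to 0.143. Lymphocyte markers were mostly lower too. Their summed level was 13.3 to 23.0 CPM at ZT2 and 7.24 to 9.29 CPM at ZT14, and 11 of 12 were negative (median log2 difference -0.80). *Cd79a* (-1.45) and *Ighm* (-1.31) were called (16.7% lower against 6.37% in the background). Both calls were lost without single libraries, at adjusted p up to 0.103 and 0.365. No lymphocyte marker was at 0 in all 6 libraries. Negative differences were not particular to lymphocyte markers. They were found in 11 of 12 Kupffer cell markers (median -0.21), 6 of 6 erythroid (median -0.84) and 3 of 3 neutrophil markers. Among endothelial markers 4 of 12 were negative. Cholangiocyte markers were also lower in sum, at 35.01 to 38.8 CPM at ZT14 against 51.7 to 64.8 CPM at ZT2. Of 6 tested, 2 were called lower, *Sox9* and *Spp1* (33.3% against 6.37% in the background). Without single libraries their adjusted p reached 0.105 and 0.0833. The part of these cells in the results above was not tested, and in bulk tissue fewer cells of a type cannot be told apart from less RNA per cell. Erythroid markers, at 304 to 595 and 230 to 329 CPM, and neutrophil markers, at 2.13 to 5.45 and 1.95 to 3.54 CPM, overlapped between the times, and none of the 6 and 3 tested genes of these lists passed in edgeR or DESeq2 (unadjusted p under 0.05 for 0 and 1). In the list of adipocyte and pancreas markers 6 of 10 were at 0, and its sum of 34.2 to 46.4 against 17.9 to 23.2 CPM was almost entirely *Cela1* (log2 -0.86), whose call was lost without ZT2 mouse b (adjusted p = 0.0939) or ZT14 mouse b (0.0858).

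Of 24 autophagy and lysosome genes 3 were higher and 4 lower (12.5% and 16.7%, against 6.21% and 6.37% in the background), led by *Bnip3*, a mitophagy receptor (log2 1.27, SE 0.11, adjusted p = 7.68e-09), and *Tfrc*, the transferrin receptor (1.04). The calls of *Gabarapl1*, *Sqstm1*, *Atg7*, *Ctsl* and *Mcoln1* were lost without single libraries, at adjusted p up to 0.121.

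Other gene groups gave few or no calls. None of 34 nuclear respiratory chain genes passed in edgeR's test, with log2 differences between -0.15 and 0.16, nor did any of 13 mitochondrially encoded transcripts, which spread from -0.60 to 0.99. An unadjusted p under 0.05 was reached by 3 and 0 genes of these lists, and DESeq2 called 0. None of 12 Kupffer cell or 12 endothelial markers passed in edgeR or DESeq2, and 0 had an unadjusted p under 0.05. Among stellate cell and fibroblast markers 1 of 12 was called, *Hand2* at 0.72 (8.33% higher). Of 20 cell cycle genes 2 were higher, *Wee1* and *Ccne1* (1.57), and *Btg1*, an antiproliferative gene, was lower (-1.09), which is 10% and 5%. Immediate early genes gave 2 higher, *Jun* and *Atf3*, and 1 lower, *Egr1*, of 20 (10% and 5%). Each of these lost its call without single libraries, at adjusted p up to 0.138, 0.167 and 0.179. Insulin and feeding response genes gave 2 higher and 2 lower of 25 (8% each, and 5 higher in a fit of the 6 libraries alone). Of these calls *Foxo1* (0.53, adjusted p = 0.00123) held in each fit with 1 library left out, while *Foxo3*, *Sesn3* and *Egr1* reached adjusted p of 0.143, 0.136 and 0.179. Of 20 secreted hormones only *Hamp* was called (5% higher). The shares of the lists with calls in this paragraph lie near the background of 6.21% higher and 6.37% lower.

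The other sampling times place these 2 times within the day. *Arntl* in the controls averaged 28.7 CPM at ZT2, 3.66 at ZT6, 1.01 at ZT10, 6.36 at ZT14, 16.97 at ZT18 and 28.3 at ZT22 (n = 3 each), so ZT14 was already past its lowest mean. *Per1* averaged 4.92, 29.9, 82.2, 73.1, 28.4 and 13.8 CPM over the same times, *Ciart* 0.400, 6.98, 38.8, 17.1, 4.96 and 1.41 CPM, and *Dbp* 2.15, 143, 162, 30.1, 6.87 and 2.46 CPM. For *Dbp* and *Ciart* the ZT14 level was therefore well under that at ZT10. *Nr1d1* averaged 38.9 CPM at ZT2, 180 at ZT6, 66.1 at ZT10 and 21.8 at ZT14, so the comparison fell on both flanks of its peak. *Per2* had its highest mean at ZT14, 102 CPM, and so did *Hspa1b*, which averaged 98.1 CPM there against 7.76 to 27.3 CPM at the other times, and *Nop2*, with 41.4 CPM against 18.4 to 29.9 CPM. *Hmgcs1* was lowest at ZT14, 77.6 CPM, and reached 537 CPM at ZT22. These time courses use the ZT2 and ZT14 libraries of the comparison itself, so they describe and do not test it.

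**Figure D4:**
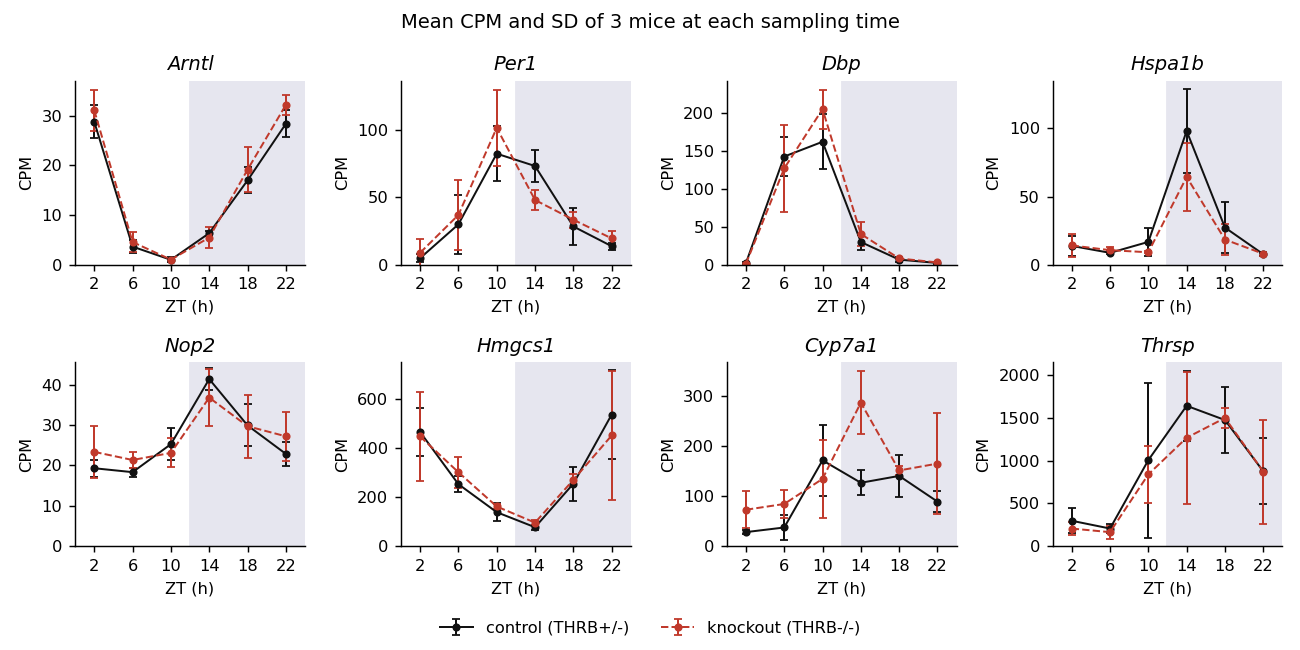
Mean CPM with SD of 3 mice (bars) at 6 sampling times for 8 genes, in control mice (black) and homozygous knockout mice (red, dashed), with the dark phase shaded. In the controls *Hspa1b* and *Nop2* have their highest mean at ZT14 and *Hmgcs1* its lowest, while *Dbp* and *Per1* are highest at ZT10.

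The homozygous mice gave a separate set of 6 libraries for the same times. There 916 genes were higher at ZT14 (5.09%) and 960 lower (5.34%). Of the 1117 genes higher in the controls, 1102 (98.7%) had a positive log2 difference in the homozygous mice, and of the 1146 lower genes 1127 (98.3%) had a negative one, whereas 49.9% of all tested genes were positive. The threshold was passed in both genotypes by 614 higher and 631 lower genes, which is 55.0% and 55.1% of the control calls and 67.0% and 65.7% of the knockout calls, and no gene was called in opposite directions. The median log2 difference of the higher genes was 0.61 in the controls and 0.46 in the homozygous mice, and that of the lower genes -0.67 and -0.51. The control values are inflated by selection, because the genes were chosen on them.

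No gene passed the test of a difference between genotypes in the ZT14 minus ZT2 change (0% of 17994, edgeR, smallest adjusted p = 1), 559 had an unadjusted p under 0.05, and DESeq2 called 2. Among the genes called in the controls the median SE of that difference was 0.21 on the log2 scale. *Arntl* was -2.52 in the homozygous mice against -2.18, *Per2* 2.91 against 2.95, *Tef* 2.60 against 2.26, *Hmgcs1* -2.22 against -2.59 and *Gys2* 1.78 against 1.59. *Per1* was 2.42 against 3.90, with a ZT2 mouse at 20.4 CPM among others at 4.28 and 2.02 CPM, and the difference of -1.48 had an SE of 0.83. *Hamp* was 0.52 (adjusted p = 0.182) against 1.26 in the controls, a difference of -0.74 (SE 0.34). Heat shock genes were higher there as well, *Hspa1b* by 2.18 and *Hspa8* by 1.26.

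**Figure D5:**
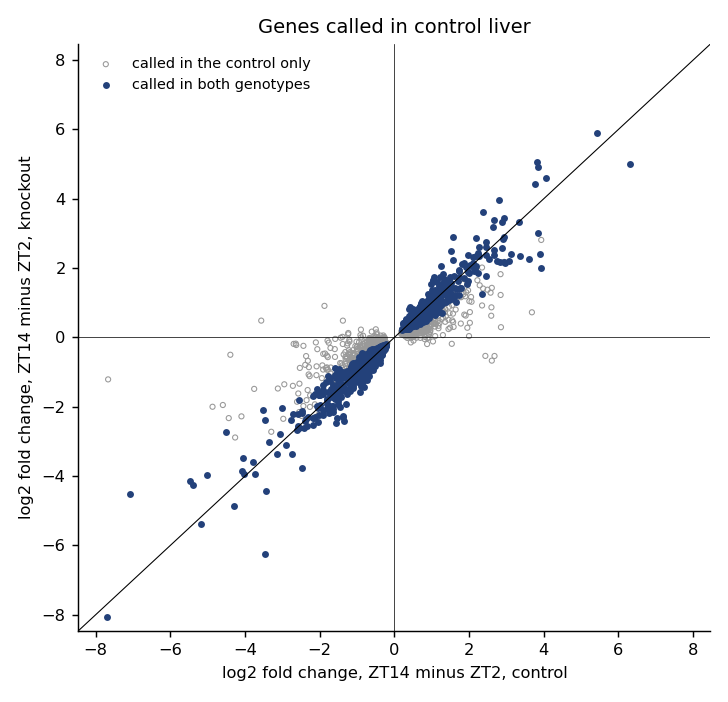
Log2 difference between ZT14 and ZT2 in homozygous mice (vertical axis) against that in control mice (horizontal axis) for the 2263 genes called in the controls, with filled points for the 1245 called in both genotypes and a line of equal change. The points follow the line from the lower left to the upper right, with a few open points on the other side of 0 on the vertical axis.

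The libraries of the homozygous mice entered the choice of these genes through the filter on low counts and the shared estimate of the spread, though not through the contrast. In these mice the highest of 6 time means fell at ZT14 for 65.2% of the 1117 genes higher in the controls, at ZT10 for 17.7% and at ZT18 for 12.5%. Their lowest mean fell at ZT2 for 42.0% and at ZT6 for 28.5%. Of the 1146 lower genes, 59.5% had their lowest mean at ZT14 and 21.1% at ZT10, and their highest mean fell at ZT2 for 40.9% and at ZT6 for 32.3%. Over all tested genes ZT14 was the time of the highest mean for 18.2% and of the lowest for 18.9%.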

How the data were processed

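The authors extracted liver RNA, prepared poly-A selected, non-directional libraries, mapped paired reads to GRCm38 with HISAT2 and counted them per gene with FeatureCounts. Versions, annotation release and treatment of reads with several matches are not given in the sources used here. The deposited counts are whole numbers for 54532 genes in 36 libraries, without normalization. Genes with a sum of at least 100 over all libraries were tested (17994). Counts were scaled by TMM. The test was edgeR's quasi-likelihood F-test (edgeR 4.0.16, limma 3.58.1, R 4.3.3) with the 36 libraries as 12 groups, which share 1 estimate of the spread over 24 residual degrees of freedom. P-values are two-sided and adjusted by Benjamini-Hochberg over all tested genes, with a threshold of 0.05. They set each difference against the spread between mice within groups, estimated over all 12 groups. CPM values use TMM library sizes. Statistical code was tested on simulated counts. Alternatives were DESeq2 1.42.0, its size factors, other filters, fewer libraries in the fit, robust estimation, a letter block and leaving out each library.

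Named genes are the 12 largest changes per direction (adjusted p under 0.05, mean of at least 1 CPM, no overlap), members of the gene lists and *Thrb*. Some members of the lists are counted but not reported here by name. Members and lists were chosen with earlier results of these data known. Promoters are from RefSeq, by symbol, for 11993 of 17994 tested genes. Intervals of count ratios are exact (conditional binomial, scipy 1.17.1) and cover counting error only.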

Additional observations from a re-analysis of the deposited data

How the results depend on the processing

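Over the fits that left out 1 of the 6 libraries, the number of genes higher at ZT14 was 720 to 891 and the number lower 744 to 967, against 1117 and 1146 with all 6, and a reduced group of 2 has fewer samples by construction. Requiring at least a 2-fold difference gave 256 higher and 340 lower genes. The other alternatives kept both counts within 1.5 times: the 6 libraries alone 1078 and 1078, the 18 control libraries alone 1034 and 1015, DESeq2 1250 and 1272, and no filter on low counts 990 and 892. For the difference between genotypes DESeq2 called 2 genes where edgeR called 0, *Cebpe* and *Mup4* (named after their values were seen), and the cause was not tested. Of the 196 called genes in the table of named genes, 0 changed sign and 79 lost the call without some library. The call was lost for 15 with the 18 control libraries alone, 11 with robust estimation, 9 with the 6 libraries alone, 8 with no filter and 1 with DESeq2 size factors. Mice share letters (a, b, c) between the times. The deviations of same-letter mice correlated at 0.0339 to 0.142 over genes, those of other pairs at -0.112 to 0.00309, and each ZT2 mouse correlated best with its own letter, a hint from the data and not the design. With the letter as replicate block, 1216 genes were higher and 1259 lower, 0 differed between genotypes, and all 196 kept their call. At these depths genes with a few counts, such as *Npas2* at ZT14, have ratios known only within wide limits.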

Other observations

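Long intergenic non-coding RNAs were called more often lower than higher at ZT14. Of 690 tested, 16 were higher and 59 lower in the controls (2.32% and 8.55%, against 6.21% and 6.37% of all tested genes), and 11 and 48 in the homozygous mice (1.59% and 6.96%, against 5.09% and 5.34%), with median log2 differences of -0.16 and -0.14. Protein-coding genes were split evenly, 1031 higher and 1010 lower of 14193 in the controls (7.26% and 7.12%) and 852 and 861 in the homozygous mice. Antisense genes gave 22 higher and 23 lower of 720 (3.06% and 3.19%), and in non-directional libraries their reads cannot be told from those of a gene they overlap.

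Tubulin genes, chosen after their values were seen, were lower at ZT14 wherever they were called. Of 11 tested alpha and beta tubulins 5 were lower and none higher in the controls, and 6 were lower in the homozygous mice (45.5% and 54.5%, against 6.37% and 5.34% of all tested genes), with median log2 differences of -0.65 and -0.50. *Tubb2a* averaged 182 ± 27.9 CPM at ZT2 and 45.5 ± 11.9 CPM at ZT14 (SD, n = 3 each; log2 -2.00, SE 0.31, adjusted p = 4.14e-05 from edgeR). *Tuba4a* averaged 256 ± 16.7 CPM against 158 ± 14.02 CPM (log2 -0.69, SE 0.11) and *Tubb4b* 166 ± 11.2 CPM against 106 ± 4.36 CPM (log2 -0.65, SE 0.12). *Tuba1b* was 0.52 lower, with an adjusted p of 0.0556 without ZT14 mouse b. Reads may be shared among tubulin genes and their pseudogenes.

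Fatty acid binding protein genes, also chosen after their values were seen, gave 3 lower (*Fabp5*, *Fabp7* and Fabp12) and none higher of 6 in the controls and 1 lower (*Fabp7*) in the homozygous mice (50% and 16.7%, against 6.37% and 5.34% of all tested genes), with median log2 differences of -0.78 and -0.37. *Fabp5* was 1.39 lower on the log2 scale (SE 0.43, adjusted p = 0.0327, up to 0.123 without ZT2 mouse b). The call of *Fabp7* was lost without any 1 of 4 libraries, at adjusted p up to 0.181. *Fabp1*, the abundant liver form, averaged 4068 ± 334 CPM at ZT2 and 3902 ± 211 CPM at ZT14 (log2 -0.06, SE 0.14, adjusted p = 0.856).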
